A study of Homo sapiens with 6 samples.

Results

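The genes described here are 9 regulators of the epithelial-mesenchymal transition (EMT) and the mesenchymal filament gene VIM. They comprise the transcription factors SNAI1, SNAI2, ZEB1, ZEB2, TWIST1 and TWIST2, the epithelial regulators ESRP1, ESRP2 and OVOL2, and VIM. They were taken by symbol, and all 10 were found among the 59653 gene symbols of the count table. Expression was compared in PA1, an established human ovarian teratocarcinoma line with a wildtype genotype label, between 3 libraries from cells given negative control siRNA and 3 from cells given siRNA against SOX2. SOX2 encodes a pluripotency transcription factor. The labels name a pair of Ambion siRNAs against SOX2; whether the pair was mixed is unstated, so an effect of 1 siRNA sequence alone cannot be told apart. All cells of both groups were kept in adherent culture for 24 h after transfection and then grown for 72 h on poly-HEMA coated plates, which prevent attachment. There is therefore no attached, untransfected or epithelial comparison sample, and 1 cell line represents each group.

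Depth ranged from 25152313 to 32753184 counts per library. Levels are given in CPM, each count taken relative to the scaled total of its library, and 3 counts, taken as the detection floor, correspond to 0.0909 to 0.120 CPM. Of the 10 genes, 6 passed the filter on low counts and were tested, among 17592 genes in all. SNAI1, SNAI2, TWIST1, ZEB1, ZEB2 and VIM passed, and TWIST2, ESRP1, ESRP2 and OVOL2 did not. The targeted transcript, SOX2, was at 245, 265 and 256 CPM in control replicates 1 to 3 and at 51.8, 54.9 and 50.6 CPM in SOX2 siRNA replicates 1 to 3, so 20.5% of its level remained. Nothing in the labels says that replicates came from separate cultures, so p-values measure the spread between these libraries, which may be technical.

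In an epithelial-mesenchymal transition, cells lose junctions and polarity and gain a mesenchymal form. Zinc finger factors of the SNAI and ZEB families bind E-box sequences and repress epithelial genes, and TWIST factors are basic helix-loop-helix proteins that act in mesoderm, neural crest and carcinoma. OVOL2 represses ZEB1, ESRP1 and ESRP2 direct epithelial patterns of splicing, and the miR-200 family of microRNAs, which ZEB factors repress in turn, targets ZEB1 and ZEB2 transcripts. Pluripotent and embryonal carcinoma cells carry epithelial and mesenchymal features in varied mixtures.

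TWIST1 and SNAI2 rose nearly alike after SOX2 siRNA, SNAI1 and ZEB1 rose less, and ZEB2 and VIM fell. The 4 that rose and 2 that fell are all of the 6 tested; over all tested genes, 28.2% were called, 14.8% higher and 13.4% lower (Benjamini-Hochberg adjusted p under 0.05 in edgeR's quasi-likelihood test). Control and SOX2 siRNA levels were fully separated for each of the 6, as they were for 41.8% of all tested genes. TWIST1 and SNAI2 rose by at least 2-fold, as did 1.57% of tested genes, and 0 of the 6 fell by as much, against 1.59% of tested genes. The median log2 fold change was 0.43 over the 6 and -0.00085 over all tested genes. In the plot of each library's level, the 4 untested genes lie near the floor in both groups.

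**Figure D1:**
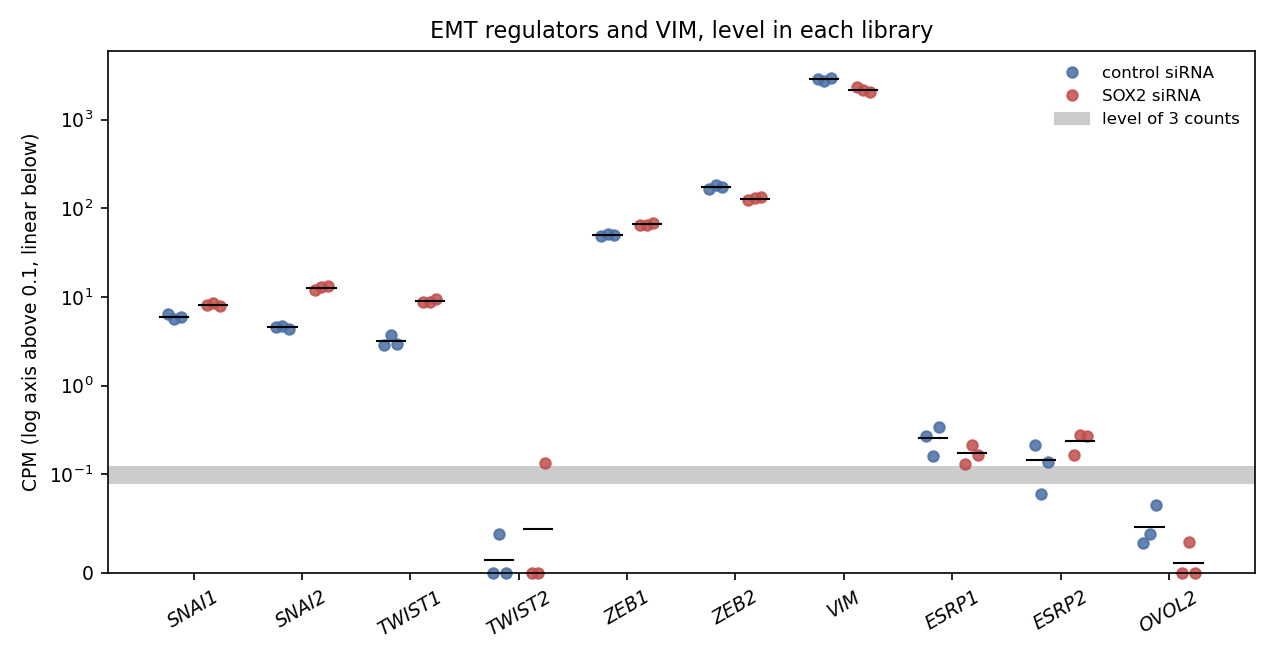
Level of each of the 10 genes (x axis) in CPM (y axis, logarithmic above 0.1 and linear below) in the 3 control siRNA (blue) and 3 SOX2 siRNA (red) libraries; black lines are group means and the grey band is the level of 3 counts. VIM is at 2042 CPM or more in every library, whereas ESRP1, ESRP2, OVOL2 and TWIST2 stay under 0.35 CPM.

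TWIST1 was at 2.91, 3.71 and 2.97 CPM in control replicates 1 to 3 and at 8.75, 8.69 and 9.57 CPM in SOX2 siRNA replicates 1 to 3. Every SOX2 siRNA library therefore lay above every control library, a gap larger than the spread within either group. The mean went from 3.20 ± 0.446 to 9.003 ± 0.495 CPM (SD, n = 3), a log2 fold change of 1.5 (SE 0.115; edgeR adjusted p = 2.32e-08). Only 141 of the 17592 tested genes had a higher log2 fold change. Its paralog TWIST2, which shares the basic helix-loop-helix domain, was counted 0, 1 and 0 times in control libraries and 0, 0 and 4 times after SOX2 siRNA. It was at or under the floor in 5 of 6 libraries, and no change can be read from 5 counts in all.

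SNAI2, which encodes SLUG, a repressor known for its part in neural crest and mesoderm emigration, was at 4.64, 4.75 and 4.32 CPM in control libraries and at 11.9, 13.1 and 13.5 CPM in SOX2 siRNA libraries. The mean went from 4.57 ± 0.220 to 12.8 ± 0.825 CPM (SD, n = 3), a log2 fold change of 1.49 (SE 0.0920; edgeR adjusted p = 1.36e-09). TWIST1 and SNAI2 thus changed by 2.83-fold and 2.80-fold. SNAI1, which encodes SNAIL and acts early in gastrulation, was at 6.48, 5.63 and 5.91 CPM in control libraries and at 8.22, 8.47 and 8.0 CPM in SOX2 siRNA libraries. Its groups were close but did not overlap, with means of 6.01 ± 0.436 and 8.23 ± 0.237 CPM (SD, n = 3) and a log2 fold change of 0.45 (SE 0.0955; edgeR adjusted p = 0.00171). The copy SNAI1P1 had at most 3 counts in any library.

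The ZEB paralogs moved in opposite directions. ZEB1 was at 48.3, 51.6 and 50.2 CPM in control libraries and at 65.6, 65.7 and 68.7 CPM in SOX2 siRNA libraries. Its mean rose from 50.04 ± 1.68 to 66.7 ± 1.73 CPM (SD of 3 libraries), with a log2 fold change of 0.41 (SE 0.0443; edgeR adjusted p = 1.45e-06). ZEB2, the ZEB factor with known roles in neural development, was at 167, 181 and 177 CPM in control libraries and at 123, 131 and 133 CPM in SOX2 siRNA libraries. Its mean fell from 175 ± 7.51 to 129 ± 5.33 CPM (SD of 3 libraries), with a log2 fold change of -0.43 (SE 0.0421; edgeR adjusted p = 4.33e-07). Each change was several times the SD of either group, and 73.9% of the ZEB2 level remained.

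Exons of both ZEB genes overlap those of an opposite-strand RNA, ZEB1-AS1 by 366 bases and ZEB2-AS1 by 1299 bases in GENCODE 29, and the use of strand in counting is not given in the sources used here. ZEB1-AS1 had 180 to 244 counts in control and 218 to 273 in SOX2 siRNA libraries, with a log2 fold change of 0.19 (SE 0.0968; edgeR adjusted p = 0.174). ZEB2-AS1 had 24 to 33 counts in the 6 libraries and a log2 fold change of -0.28 (SE 0.260; edgeR adjusted p = 0.470). ZEB1 itself had 1294 to 2125 counts and ZEB2 had 3719 to 5500, so both sense genes were counted far above their partners. The ZEB2 copy ZEB2P1 had 1 count in control replicate 2 and 0 in the other 5 libraries.

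MicroRNAs known to target ZEB transcripts are printed. ZEB1 and ZEB2 both carry matches to bases 2 to 8 of miR-200 family members, and of the pair only ZEB1 carries such a match for miR-205. Shorter matches were not counted. Any part of microRNAs in the opposite changes of the pair was not tested. Mature sequences are from RefSeq (GRCh38.p14), 5′ to 3′, with the seed (bases 2 to 8) in capitals. The first 3 share a seed, as do the next 2, and miR-205 stands alone. The loci are chr1:1167160-1167181 for miR-200b, chr12:6963742-6963764 for miR-200c, chr1:1169055-1169076 for miR-429, chr1:1167916-1167937 for miR-200a, chr12:6964155-6964176 for miR-141 and chr1:209432166-209432187 for miR-205, all on the plus strand.
miR-200b-3p: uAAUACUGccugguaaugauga
miR-200c-3p: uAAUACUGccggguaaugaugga
miR-429: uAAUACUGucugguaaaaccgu
miR-200a-3p: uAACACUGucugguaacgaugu
miR-141-3p: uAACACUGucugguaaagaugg
miR-205-5p: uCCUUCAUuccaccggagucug

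Matches to these seeds were counted in the 3′ untranslated region (UTR) of the longest coding transcript of each gene in the GENCODE 29 basic set. CAGTATT, the match to miR-200b, miR-200c and miR-429, occurred 6 times in the 2549 bases of ZEB1 and 5 times in the 5370 bases of ZEB2. It was present at least once in 16.3% of 18652 genes, whose UTRs differ in length. CAGTGTT, the match to miR-200a and miR-141, occurred 3 times in ZEB1 and 4 times in ZEB2, and was present in 18.5% of genes. ATGAAGG, the match to miR-205, occurred once in ZEB1 and 0 times in ZEB2, and was present in 11.6% of genes. SNAI1, TWIST1, VIM, ESRP2, OVOL2 and TWIST2 held none of the 3 matches. SNAI2 held 1 CAGTATT, and ESRP1 held 1 CAGTATT and 1 CAGTGTT. A match is a run of letters, not a measured site of action. For each ZEB gene 1 site of each miR-200 family is printed, with the match in capitals and the position of its first base in the UTR, along with the miR-205 match of ZEB1.
ZEB1, base 1243: atttttacctatCAGTATTattt
ZEB2, base 455: actacaatgcatCAGTATTatga
ZEB1, base 1533: gatttgatttaaCAGTGTTatgt
ZEB2, base 734: gccatccttgtaCAGTGTTaaga
ZEB1, base 818: atgtggtaacatATGAAGGatat

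Mature microRNAs are not captured in mRNA libraries, and only longer host transcripts can be seen. MIR200CHG, the host of miR-200c and miR-141, had 1 count in control replicate 1 and 0 in each of the other 5 libraries. TTLL10, the coding gene beside the miR-200b, miR-200a and miR-429 cluster, had at most 3 counts in any library. Both were thus at or under the floor in every library. MIR205HG, the host of miR-205, was low but counted, at 38, 35 and 41 counts in control and 14, 13 and 20 in SOX2 siRNA libraries. It fell from 1.32 ± 0.148 to 0.512 ± 0.14 CPM (SD of 3 libraries), with a log2 fold change of -1.36 (SE 0.270; edgeR adjusted p = 9.50e-04).

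Promoter windows of RefSeq (250 bases before to 50 after a transcript start, GRCh38.p14) were matched for 4 of the 10 genes, ZEB1, ZEB2, VIM and TWIST2, in 10 windows of which 7 belong to ZEB1. SNAI and ZEB proteins bind the E-box CACCTG, read as CAGGTG on the opposite strand, which is one form of CANNTG, to which TWIST dimers also bind. CACCTG in either orientation was found in 2 of the 10 windows, both of ZEB1, and in 20.6% of all 35116 windows. CANNTG was found in 5 of the 10 windows and in 68.7% of all. CATTGT, a core recognised by SOX proteins, was found on either strand in 0 of the 10 windows and in 10.8% of all; its absence says only that these letters are not in these windows. The ZEB1 window with 3 such E-boxes and the ZEB2 window are printed to show the promoters of the pair that moved apart; capitals mark CANNTG. In the ZEB1 window (chr10:31318966-31319265, plus strand) the matches begin 242 and 85 bases before and 34 bases after the start. In the ZEB2 window (chr2:144520070-144520369, minus strand) a single CACATG begins 180 bases before the start. Which ZEB1 start these cells use cannot be read from gene counts.
ZEB1 promoter: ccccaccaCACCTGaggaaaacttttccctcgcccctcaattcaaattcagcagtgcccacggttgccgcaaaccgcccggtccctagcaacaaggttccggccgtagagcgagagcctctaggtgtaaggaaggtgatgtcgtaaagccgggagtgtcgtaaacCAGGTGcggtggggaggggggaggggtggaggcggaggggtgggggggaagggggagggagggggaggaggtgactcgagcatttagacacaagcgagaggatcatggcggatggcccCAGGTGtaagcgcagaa
ZEB2 promoter: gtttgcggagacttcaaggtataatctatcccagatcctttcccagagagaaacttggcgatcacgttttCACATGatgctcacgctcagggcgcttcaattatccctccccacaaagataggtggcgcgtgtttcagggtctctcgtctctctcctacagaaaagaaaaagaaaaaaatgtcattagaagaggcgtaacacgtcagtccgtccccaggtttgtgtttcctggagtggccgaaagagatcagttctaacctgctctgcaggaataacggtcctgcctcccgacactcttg

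VIM encodes vimentin, the intermediate filament protein of mesenchymal cells that embryonal cell lines also make. It was at 2906, 2738 and 2993 CPM in control libraries and at 2363, 2173 and 2042 CPM in SOX2 siRNA libraries, and ranked 16 by mean CPM among tested genes. Its mean fell from 2879 ± 129.6 to 2193 ± 161 CPM (SD of 3 libraries), with a log2 fold change of -0.39 (SE 0.0520; edgeR adjusted p = 1.60e-04), with 76.2% of the control level remaining. In a bulk sample, fewer cells that make a transcript and less of it per cell cannot be told apart. VIM-AS1, whose exons overlap those of VIM by 641 bases on the opposite strand, had 178 to 237 counts in control and 120 to 191 in SOX2 siRNA libraries, against at least 61016 for VIM. Its log2 fold change was -0.41 (SE 0.142; edgeR adjusted p = 0.0419), its groups overlapped, and the adjusted p rose as high as 0.161, without control replicate 2.

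Markers were summed to check the label and other cell types. Pluripotent and embryonal carcinoma markers, including SOX2, summed to 1495 to 1529 CPM in control and 1819 to 1821 CPM in SOX2 siRNA libraries. LIN28A, POU5F1 and SALL4 were well counted, L1TD1 and DPPA4 were low (control means of 1.79 and 3.05 CPM) and TDGF1 was at or under the floor. The mean of LIN28A rose from 706 to 1148 CPM, and that of SOX2, the siRNA target, fell from 255 to 52.5 CPM. POU5F1 and DNMT3B rose less, and SALL4, L1TD1 and DPPA4 did not pass. Of the 7 tested, 57.1% were called, against 28.2% of all tested genes. The 7 include SOX2, whose fall the siRNA was meant to bring about, so this share does not describe the other markers alone. Of 8 markers of differentiated surface epithelium, KRT5, KRT14 and TP63 were at or under the floor and the sum was 8.02 to 10.7 CPM in control and 6.15 to 9.64 CPM in SOX2 siRNA libraries. The 8 fibroblast markers summed to 146 to 156 CPM in control and 238 to 254 CPM in SOX2 siRNA libraries, mostly THY1 and PDGFRB, while FAP and DPT were at or under the floor. The 7 endothelial markers summed to 129 to 134 and 100.2 to 104 CPM, with CLDN5 at 0. The 7 leukocyte markers summed to 3.70 to 16.1 and 2.97 to 19.3 CPM, with PTPRC and CD3E at or under the floor. The range of these sums came mostly from LYZ. It was at 14.6, 13.9 and 2.11 CPM in control and 18.0, 1.48 and 12.2 CPM in SOX2 siRNA libraries. The fibroblast sum was higher after SOX2 siRNA, as TWIST1 and SNAI2 were, and the endothelial sum lower, as ZEB2 and VIM were; their part in those results was not tested. Neither list moved as a whole, and the genes that follow were named after their values were seen. Most of the fibroblast difference was PDGFRB, at 28.6 ± 0.999 and 106 ± 0.388 CPM (SD, n = 3), while THY1 was at 101 ± 3.79 and 115 ± 7.79 CPM. PRRX1, another fibroblast marker, fell, with 15, 11 and 17 counts in control and 1, 4 and 2 in SOX2 siRNA libraries (edgeR adjusted p = 4.87e-04). Of the 6 endothelial markers tested 5 fell, as did 13.4% of all tested genes. Among the 5, the call of TEK was close to the threshold (edgeR adjusted p = 0.0455). ESAM rose from 3.41 ± 0.572 to 5.37 ± 0.0195 CPM (edgeR adjusted p = 0.00127), and 14.8% of all tested genes rose.

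Other intermediate filament genes moved in both directions. Of 15 filament and linker genes, 13 were tested, and 3 rose, 4 fell and 6 did not pass (53.8% called, against 28.2% of all tested genes). NES, the filament of neural progenitors that pairs with vimentin, fell from 780.5 ± 7.49 to 517 ± 5.604 CPM (SD of 3 libraries), with a log2 fold change of -0.59 (SE 0.0318; edgeR adjusted p = 1.84e-10). INA, a neuronal filament gene, fell by 0.66 on the log2 scale (edgeR adjusted p = 3.80e-08). SYNM and NEFH rose by 0.28 and 0.41 on that scale (edgeR adjusted p = 2.08e-04 and 4.90e-04). Keratin genes, which make the filaments of epithelia, had 4 of 12 members tested. The partners of simple epithelium, KRT8 and KRT18, rose with log2 fold changes of 0.42 and 0.49 (edgeR adjusted p = 1.56e-06 and 1.14e-07), from 237 ± 14.0 to 316 ± 11.9 CPM and from 126 ± 6.51 to 177 ± 5.92 CPM (SD, n = 3). KRT10 had a log2 fold change of -0.26 (edgeR adjusted p = 0.0450), its groups overlapped, and the call was lost under 8 of 15 alternatives, with an adjusted p of up to 0.202 without control replicate 2.

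The epithelial regulators were near the floor in both groups. ESRP1, an RNA-binding protein that directs epithelial exon choice, had 9, 4 and 10 counts in control libraries and 4, 7 and 5 in SOX2 siRNA libraries. That is 0.259 ± 0.0938 and 0.172 ± 0.0422 CPM (SD, n = 3), and the groups overlapped (exact permutation p = 0.3, two-sided; 0.1 is the smallest value that 3 against 3 libraries allow). Its paralog ESRP2 had 7, 2 and 4 counts in control libraries and 5, 9 and 8 in SOX2 siRNA libraries, or 0.143 ± 0.0663 and 0.237 ± 0.0623 CPM (SD, n = 3; exact permutation p = 0.2). Its groups overlapped as well. Exons of ESRP2 overlap 149 bases of NFATC3 on the opposite strand, which had 2174 to 2762 counts, and without strand reads of this stretch cannot be told apart. OVOL2, a zinc finger repressor of mesenchymal factors, had 1, 1 and 2 counts in control libraries and 0, 1 and 0 in SOX2 siRNA libraries, under the floor in every library; its exons overlap 59 bases of SNX5 on the same strand, a gene with 4315 to 5573 counts. These 3 genes were not in the fit across genes, and at these counts no difference in level was shown for any of them.

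Levels of different genes were compared as CPM per kilobase of the longest coding transcript. Which transcripts these cells make was not measured, so orders and folds between genes hold for that length only. In control libraries the order was VIM (1541 ± 69.4), ZEB2 (18.2 ± 0.783), ZEB1 (7.99 ± 0.268), SNAI1 (3.56 ± 0.258), TWIST1 (1.92 ± 0.268) and SNAI2 (1.88 ± 0.0908) CPM per kilobase (SD, n = 3). TWIST1 and SNAI2 overlapped, whereas every other neighbour in that list was separated in all 3 libraries. ESRP1 followed at 0.0682 ± 0.0247 CPM per kilobase, then ESRP2, OVOL2 and TWIST2, each overlapping its neighbour. In SOX2 siRNA libraries VIM (1174 ± 86.3), ZEB2 (13.5 ± 0.556) and ZEB1 (10.6 ± 0.276) kept the first 3 places. TWIST1 (5.40 ± 0.297), SNAI2 (5.28 ± 0.340) and SNAI1 (4.88 ± 0.141 CPM per kilobase) then followed, with each overlapping the next. ZEB2 stood 2.28-fold above ZEB1 per kilobase in control and 1.27-fold above it after SOX2 siRNA. VIM stood 84.5-fold and 87.0-fold above ZEB2 in the 2 groups.

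Ratios of a pair of genes within a library do not depend on how libraries are scaled. Of 6 pairs set out, 4 could be used, and TWIST1 with TWIST2 and OVOL2 with ZEB1 could not. No control library held more than 3 counts of TWIST2, and no library of either group held more than 3 of OVOL2. The log2 ratio of ZEB1 to ZEB2 counts was -1.79, -1.81 and -1.81 in control libraries and -0.91, -1.0 and -0.96 in SOX2 siRNA libraries. Its difference of 0.85 far exceeded the SDs of 0.0153 and 0.0455. The log2 ratio of SNAI1 to SNAI2 counts was 0.48, 0.24 and 0.45 in control libraries and -0.53, -0.62 and -0.75 in SOX2 siRNA libraries, a difference of -1.03 without overlap. The ratio of ESRP1 to ESRP2 differed by -1.22, also without overlap, but rests on 2 to 10 counts a library. For these 3 pairs the exact two-sided permutation p was 0.1, the smallest possible (Benjamini-Hochberg 0.133 over 4 pairs). The ratio of ESRP1 to ZEB1 differed by -0.93 with overlapping groups (exact permutation p = 0.2).

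**Figure D2:**
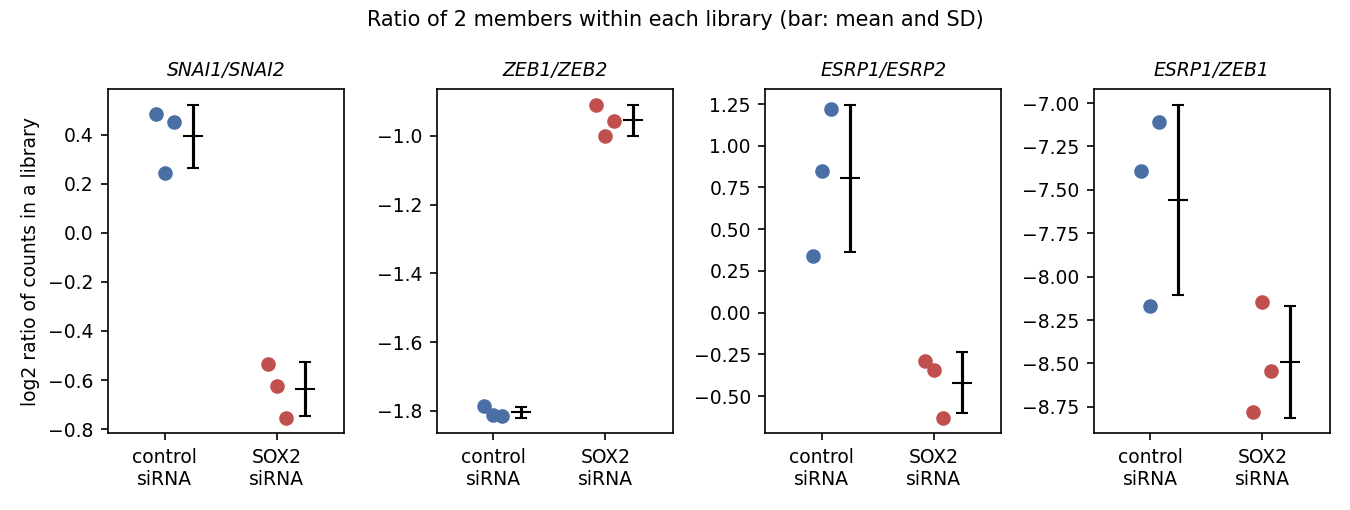
Log2 ratio of the counts of 2 genes within a library (y axis) in control siRNA and SOX2 siRNA libraries (x axis), for the 4 pairs used; points are libraries and bars give mean and SD, with a separate y range per panel. The ZEB1/ZEB2 libraries cluster tightly at -1.80 and -0.95, while the ESRP1/ESRP2 and ESRP1/ZEB1 points scatter widely.

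Of 20 other transcription factors linked to EMT, 12 were tested, with 6 higher, 3 lower and 3 not passing, and a median log2 fold change of 0.33. That is 75% called, against 28.2% of all tested genes (14.8% higher and 13.4% lower). FOXC1, a forkhead factor of mesoderm and neural crest, had 992, 777 and 901 counts in control and 3393, 3439 and 3250 in SOX2 siRNA libraries. It rose from 30.7 ± 0.602 to 109 ± 3.04 CPM (SD of 3 libraries), with a log2 fold change of 1.83 (SE 0.0438; edgeR adjusted p = 4.03e-15), more than TWIST1 or SNAI2 by point estimate. SOX9, of neural crest and cartilage, and the chromatin protein gene HMGA2 rose by log2 fold changes of 0.53 and 0.40 (edgeR adjusted p = 3.60e-08 and 1.10e-07). The 3 that fell, named after their values were seen, were PRRX1, KLF8 and RUNX2. The homeobox gene PRRX1 had the largest fitted change of the list, a log2 fold change of -2.64 (SE 0.485; edgeR adjusted p = 4.87e-04) that rests on 1 to 4 counts in SOX2 siRNA libraries. KLF8 and RUNX2 fell by 0.45 and 0.44 on the log2 scale (edgeR adjusted p = 0.00931 and 0.00730), and without control replicate 2 the adjusted p of KLF8 was 0.0636.

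Of 16 transcription factors that promote epithelial identity, 7 were tested, of which 4 fell, 0 rose and 3 (GRHL1, ELF3 and KLF4) did not pass, with a median log2 fold change of -0.44. Of all tested genes, 13.4% fell and 14.8% rose. TFAP2C, an AP-2 factor of germ cells and surface ectoderm, fell from a mean of 27.1 ± 1.19 to one of 11.9 ± 0.297 CPM (SD, n = 3), a log2 fold change of -1.19 (SE 0.0630; edgeR adjusted p = 1.52e-10). TFAP2A and the grainyhead factor GRHL3 fell by 0.43 and 0.46 on the log2 scale (edgeR adjusted p = 4.07e-08 and 3.25e-04). KLF5 fell by 0.34 (edgeR adjusted p = 0.0278), a call lost under 4 of 15 alternatives, with an adjusted p of up to 0.165 without SOX2 siRNA replicate 2.

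Epithelial junction and surface genes moved both ways. Of 35, of which 34 were matched by symbol, 27 were tested, 3 rose, 7 fell and 17 did not pass, with a median log2 fold change of -0.0085. The share called was 37% against 28.2% of all tested genes. CLDN6, a claudin of embryonal cells, fell from 146 ± 11.003 to 88.9 ± 1.49 CPM (mean and SD of 3 libraries; log2 fold change -0.71; edgeR adjusted p = 1.15e-08). The junctional adhesion gene F11R and the desmosomal cadherin DSC2 fell by 0.61 and 0.32 on the log2 scale, and the plakoglobin gene JUP rose by 0.37 (edgeR adjusted p = 8.67e-07, 9.79e-05 and 7.64e-06). CDH1, the E-cadherin gene that SNAI and ZEB proteins repress, was named after its values were seen. It was at 1.29 ± 0.246 and 1.37 ± 0.166 CPM with overlapping groups (log2 fold change 0.07, SE 0.218; edgeR adjusted p = 0.854). Its log2 fold change was -0.01 without control replicate 3 and -0.04 without SOX2 siRNA replicate 1. EPCAM, also named afterwards, spread widely within each group, with 123, 42 and 25 counts in control and 107, 20 and 63 in SOX2 siRNA libraries. Its log2 fold change was -0.03 (SE 0.856; edgeR adjusted p = 0.986), and 0.73 without control replicate 1 or 0.41 without SOX2 siRNA replicate 2.

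Mesenchymal effector genes had 18 of 20 members tested, of which 9 rose, 1 fell and 8 did not pass, with a median log2 fold change of 0.07. Of all tested genes, 14.8% rose and 13.4% fell. FN1, the fibronectin gene, had 16928, 11439 and 13032 counts in control and 37154, 35707 and 37229 in SOX2 siRNA libraries. It rose from 473 ± 34.3 to 1194 ± 77.8 CPM (SD of 3 libraries), with a log2 fold change of 1.33 (SE 0.0626; edgeR adjusted p = 4.56e-07). ITGA5, whose product pairs in the fibronectin receptor, rose from 62.0 ± 3.56 to 93.1 ± 4.95 CPM (log2 fold change 0.59; edgeR adjusted p = 1.05e-07). S100A4 and MSN rose by log2 fold changes of 0.47 and 0.20 (edgeR adjusted p = 1.09e-05 and 2.48e-04). The 1 that fell was the N-cadherin gene CDH2, named for that reason, from 257 ± 10.9 to 238 ± 3.16 CPM (mean and SD of 3 libraries; log2 fold change -0.11; edgeR adjusted p = 0.0292). That call was lost in 4 of the 6 fits that left out a library, with an adjusted p of up to 0.123 without control replicate 2.

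**Figure D3:**
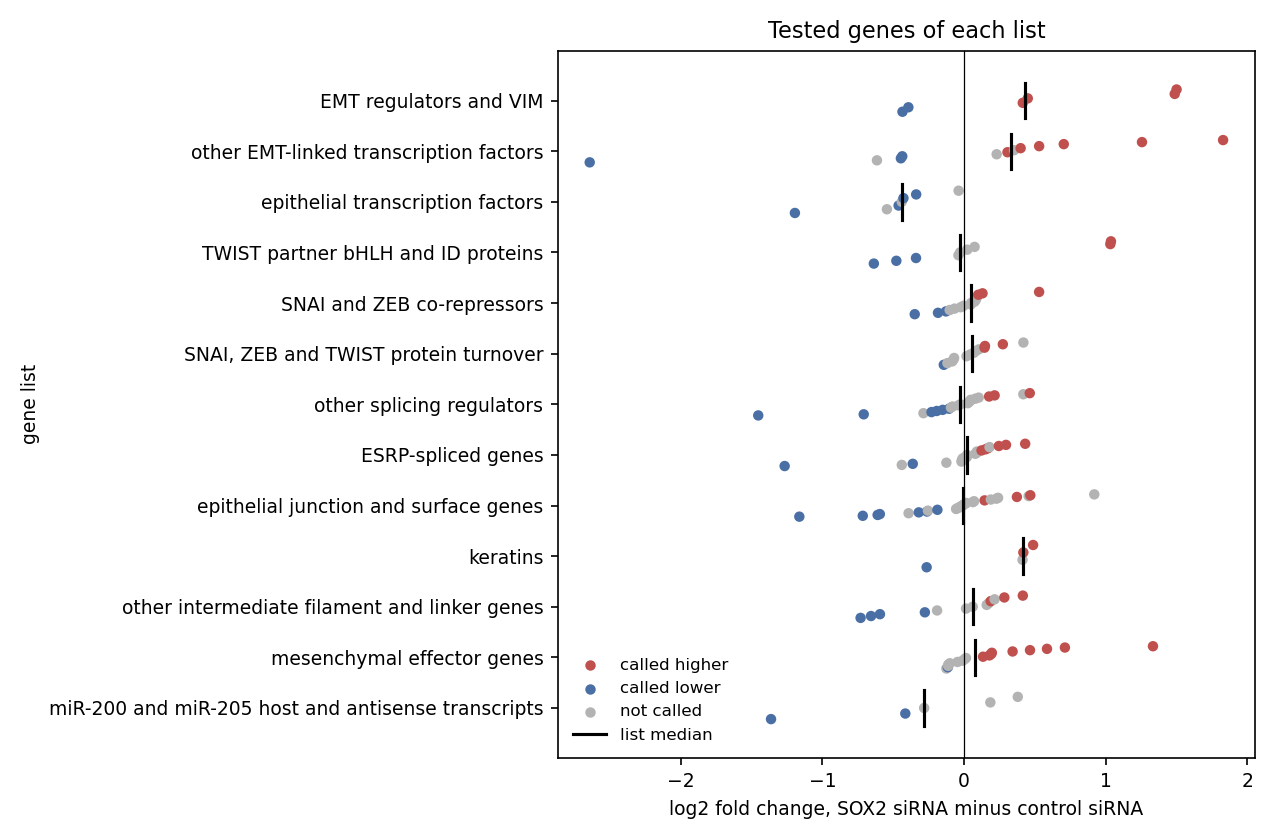
Log2 fold change of SOX2 siRNA over control siRNA (x axis) for the tested genes of each list (y axis); red points were called higher, blue lower and grey not called, and the black line is the list median. Epithelial transcription factors and the host and antisense transcripts have no red point, while junction, splicing and filament genes lie on both sides of 0.

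Transcripts were also counted for proteins that work with TWIST, SNAI and ZEB. Of 11 TWIST partner and ID genes, 9 were tested, with 2 higher, 3 lower and 4 not passing (55.6% called, against 28.2% of all tested genes). The E-protein genes TCF3, TCF4 and TCF12, whose products dimerise with TWIST1, were among those not passing. ID3, an inhibitor that binds E-proteins, rose from 54.4 ± 5.604 to 112 ± 10.3 CPM (mean and SD of 3 libraries; log2 fold change 1.04; edgeR adjusted p = 3.20e-04), while its paralogs ID2 and ID4 fell by 0.64 and 0.48 on the log2 scale (edgeR adjusted p = 4.87e-08 and 0.00339). HAND1, another TWIST family gene, rose from 1.68 ± 0.166 to 3.44 ± 0.313 CPM (log2 fold change 1.03; edgeR adjusted p = 1.03e-04). Of 17 SNAI and ZEB co-repressor genes, all tested, 3 rose, 3 fell and 11 did not pass, or 35.3% called, near the 28.2% of all tested genes. HDAC1, a histone deacetylase recruited by SNAI1, rose from 119 ± 1.32 to 172 ± 4.27 CPM (mean and SD of 3 libraries; log2 fold change 0.53; edgeR adjusted p = 5.28e-09). The LIM gene WTIP and the Polycomb gene SUZ12 fell by 0.35 and 0.18, and EZH2 rose by 0.13 on the log2 scale (edgeR adjusted p = 0.00140, 0.00410 and 0.0172). The EZH2 call was lost in 3 fits that left out a library, with an adjusted p of up to 0.111 without SOX2 siRNA replicate 2. The list held 3 calls without control replicate 3, without SOX2 siRNA replicate 2 and without SOX2 siRNA replicate 3. Those fits called 3914 of 18005, 3760 of 17987 and 4294 of 18056 tested genes. Of 14 genes for turnover of these proteins, 3 rose, 1 fell and 10 did not pass. This share of 28.6% called is that of all tested genes (28.2%), so the count is no result about the list. The ubiquitin ligase gene SIAH2 had the smallest p (log2 fold change 0.27; edgeR adjusted p = 0.00250). CSNK1E, FBXL5 and BTRC had log2 fold changes of 0.15, 0.14 and -0.14. Each lost its call in 1 to 3 fits without a library, with edgeR adjusted p-values of up to 0.0565, 0.0984 and 0.0977. Without SOX2 siRNA replicate 2, and likewise without control replicate 2, 2 calls were left in the list. Those fits called 3760 of 17987 and 3824 of 18012 tested genes.

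Of 23 splicing regulators other than the ESRP pair, 21 were tested, with 3 higher, 6 lower and 12 not passing (42.9% called, against 28.2% of all tested genes). RBFOX1 and RBFOX3 were under the floor in every library. RBM24, a splicing factor of heart and muscle, fell from 9.89 ± 0.702 to 3.61 ± 0.161 CPM (SD of 3 libraries), with a log2 fold change of -1.45 (SE 0.103; edgeR adjusted p = 8.54e-09). RBFOX2, which favours mesenchymal exon choice, rose from 254 ± 9.08 to 295 ± 7.22 CPM (log2 fold change 0.22; edgeR adjusted p = 2.42e-04). QKI, another regulator of exon choice in mesenchymal cells, fell by 0.19, and MBNL2 rose by 0.46 on the log2 scale (edgeR adjusted p = 0.00124 and 0.00247). Of 21 genes whose exons ESRP proteins regulate, all tested, 6 rose, 2 fell and 13 did not pass, or 38.1% called against 28.2% of all tested genes. FGFR2, the classical ESRP target, had 2963, 2481 and 2518 counts in control and 1168, 1290 and 1073 in SOX2 siRNA libraries, a log2 fold change of -1.27 (SE 0.0545; edgeR adjusted p = 2.51e-11). FGFR1 fell by 0.36, and RALGPS2 and ARHGEF10L rose by 0.30 and 0.43 on the log2 scale (edgeR adjusted p = 2.30e-06, 5.05e-05 and 8.13e-05). Counts per gene do not separate splice forms, so exon choice was not measured.

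SNAI2 and TWIST1 had the smallest p-values of the 6 tested genes, and the genes whose log2 CPM followed theirs most closely over the 6 libraries were found among 12080 genes with a mean log2 CPM of at least 2. For SNAI2 these were CTDSPL, FZD1 and FADS1, with Pearson correlations of 0.9996, 0.9991 and 0.9991 and log2 fold changes of 0.67, 0.36 and 0.42. For TWIST1 they were HSP90B1, FNIP2 and C1orf226, with correlations of 0.9978, 0.9974 and 0.9973 and log2 fold changes of 0.17, 0.49 and 0.30. All points share the 2 groups, and the correlations describe 6 libraries only.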

How the data were processed

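Counts per gene symbol for 6 libraries were used as the authors deposited them. They are whole numbers with unequal totals, and the column names match the libraries' descriptions. The labels' protocols name Trizol for RNA extraction and the KAPA mRNA HyperPrep kit for libraries. Per the submitters' processing notes, bcl2fastq 2.20.0, STAR 2.7.3a, Salmon 0.14.1 and DESeq2 1.28.1 were used with GRCh38.p13. Their roles, the annotation and the use of strand are not given in the sources used here; if Salmon made the counts, they are rounded estimates.

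Genes passing edgeR's filterByExpr (minimum count 10) were scaled by TMM, with factors of 0.991 to 1.01. They were tested with edgeR 4.0.16 (glmQLFit with robust=TRUE, glmQLFTest; R 4.3.3) on group, with Benjamini-Hochberg adjustment over the 17592 tested genes and a threshold of 0.05. CPM uses the scaled sizes of all tested counts. Ratios used counts plus 0.5. Floors cover counting error only, since PCR reads without molecular identifiers are not independent molecules. Alternatives used DESeq2 1.42.0 and limma 3.58.1. Python 3.11.15, pandas 2.3.3 and matplotlib 3.10.9 read the reference tables and drew the plots. The test was tested on simulated data.

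The 10 genes and the lists were chosen with earlier results of these data known. Named were the 10 genes, SOX2, tested host and antisense transcripts, up to 4 called genes a list by smallest p, and for the 2 tested genes of smallest p the 3 genes most alike. One gene that this rule names is not reported here. Lists were counted, not tested. No library was left out. GENCODE 29 (GRCh38) gave lengths, overlaps and UTRs. Promoters were not used here for genes that the reference table did not match.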

Additional observations from a re-analysis of the deposited data

How the results depend on the processing

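The 6 tested genes kept their direction and their call under all 15 alternatives, with 4 higher and 2 lower in each fit, as did SOX2. The log2 fold change ranged from 1.43 to 1.61 for TWIST1, 1.45 to 1.53 for SNAI2, 0.41 to 0.51 for SNAI1, 0.39 to 0.44 for ZEB1, -0.47 to -0.40 for ZEB2 and -0.45 to -0.35 for VIM, and the highest adjusted p of any was 0.0140, for SNAI1. Calls over all genes ranged from 3760 to 5212 against 4964. Deviations of same-numbered libraries from their group means had correlations of 0.0868, -0.0377 and -0.0311, and those of differently numbered libraries ranged from -0.120 to 0.155. With 3 libraries a group, these correlations cannot show whether same-numbered libraries share a batch or a pairing. With the replicate block 5177 genes were called, 4829 of them shared with the fit without it, and no call of the 6 changed. The 4 ratios kept their sign under added counts of 0 and 2 and without each library. Alternatives for the other lists and named genes were added after seeing the data. Of 944 values for 63 other named genes, 34 lost their call and 4 reversed: CDH1 without control replicate 3 (-0.0124) and SOX2 siRNA replicate 1 (-0.0364), and EPCAM without control replicate 1 (0.726) and SOX2 siRNA replicate 2 (0.4102); leaving out each library gave -0.0364 to 0.248 for CDH1 and -0.653 to 0.726 for EPCAM. PRRX1 has no value with at least 10 counts asked of every library. Leaving out each replicate gave 3 to 6 called co-repressor genes, 2 to 5 turnover genes and 1 to 2 host and antisense transcripts. Over all tested genes, calls in those fits ranged from 3760 of 17987 to 4863 of 17961, against 4964 of 17592 in the main fit. The count of host and antisense transcripts was also 1, from 2, with total counts only, DESeq2's Wald test, limma-voom and robust=FALSE, as VIM-AS1 lost its call. Those 4 settings called 4936, 3923, 4700 and 4752 of the 17592 tested genes. For the lists the cause was not tested. Depth limits ESRP1, ESRP2, OVOL2 and TWIST2, for which no fold is given.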
